A study of Homo sapiens with 6 samples.

Results

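Kinesins are motor proteins that walk along microtubules, and 42 of the 78304 genes in the table carry a kinesin symbol (KIF with a number and at most 1 letter, or KIFC1, KIFC2 and KIFC3, without pseudogenes and antisense genes). No symbol occurred more than once. By their known main role 15 were taken as mitotic, 15 as transport and 12 as other kinesins. Poly(A) RNA was sequenced from Huh7, an established and here unmodified (wild-type) line from a human hepatocellular carcinoma. Cells were seeded for 24 h and then received either the vehicle DMSO (3 libraries) or the compound 16'-DEC (3 libraries) for 24 h. The compound is known here by this code only, the labels give no dose, and the study asks how it acts against liver cancer cells.

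As background, a kinesin motor head uses ATP to step along a microtubule, and the tail sets what it does there. Mitotic kinesins build the spindle, move and align chromosomes and complete cell division, and many of them are made mainly in the late part of the cell cycle. Transport kinesins carry vesicles, organelles and protein complexes through the cytoplasm of cells whether or not these divide. The remaining kinesins serve in cilia and centrioles or regulate microtubule growth, or their role is less well known.

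Values are TPM, transcript abundances scaled per length and to a fixed sum per library, so they carry no absolute depth, and a level or change is relative to the other transcripts. Libraries correlated at 0.982 to 0.994 within the groups and at 0.898 to 0.921 between them (Pearson's r across tested genes). All 9 hepatocyte and hepatoma markers checked, among them ALB and AFP, were above 1 TPM, with sums of 20980 to 21930 TPM in DMSO and 24340 to 25330 TPM with 16'-DEC. They did not move together: 3 were lower and 4 higher (48.9% and 22.7% of all genes tested were), with APOA2 going from 7692 to 12700 TPM on average and AFP from 2721 to 965 TPM. Of 12 markers of blood, endothelial and stromal cells, 8 did not reach a mean of 1 TPM and CD3E was at 0 in every library. The 12 summed to 37.9 to 40.6 TPM in DMSO and 55.9 to 64.2 TPM with 16'-DEC, mostly CD68, which also encodes a lysosomal protein; their part in the results was not tested. Replicate 3 of 16'-DEC was the lowest treated library in 24 of 31 tested kinesins, against 57.9% of all 14275 genes tested. In bulk RNA, a change in the share of cells in a cell cycle phase and a change of RNA per cell cannot be told apart. Whether the replicates came from separate cultures is not stated, so p-values reflect the spread of these libraries alone, which may be technical.

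Only kinesins that averaged 1 TPM or more across all 6 libraries were tested, as 31 of the 42 did: 13 mitotic, 13 transport and 5 other. Of these 31, 24 were lower and 4 higher with 16'-DEC at an adjusted p under 0.05 (limma on log2(TPM + 1), Benjamini-Hochberg over all genes tested), where 48.9% of all genes tested were lower and 22.7% higher. All 13 tested mitotic kinesins fell, with a median change of -1.22 on the log2(TPM + 1) scale. Of the 13 tested transport kinesins 6 fell, 4 rose and 3 did not pass. Their median was -0.36, and that of all genes tested was -0.31. Without 16'-DEC replicate 3 these medians were -0.18 and -0.26, and 6 transport kinesins were higher (KIF1B and KIF13B added). All 5 tested other kinesins fell (median -0.71), but 3 of them reached the filter only through DMSO, as did KIF14 among the mitotic ones, so that these 4 had to be lower. Of the kinesins whose mean reached 1 TPM in both groups, 12 of 12 mitotic, 6 of 12 transport and 2 of 2 other ones were lower. Of these 12 transport kinesins 3 were higher. KIF17 reached the filter only through 16'-DEC, so that it had to be higher. The difference between the mitotic and the transport median was -0.86. It is a description of these lists and was not tested. Because TPM are relative, the direction of small changes depends on scaling: the median of all genes tested moved to -0.01 with median-of-ratios scaling and to 0.11 under quantile normalization. Under each of these scalings 10 of the 13 mitotic kinesins were lower and 0 higher, and of the transport kinesins 3 were lower and 5 higher. Of all genes tested, 37.7% were lower and 37.1% higher with the first scaling, and 33.3% lower and 42.0% higher with the second. Treated and DMSO libraries did not overlap in 28 of the 31 tested kinesins, 24 of them lower and 4 higher, where 51.0% of all genes tested were lower and 24.3% higher without overlap. These counts include KIF17 and the 4 kinesins that reached the filter only through DMSO.

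**Figure D1:**
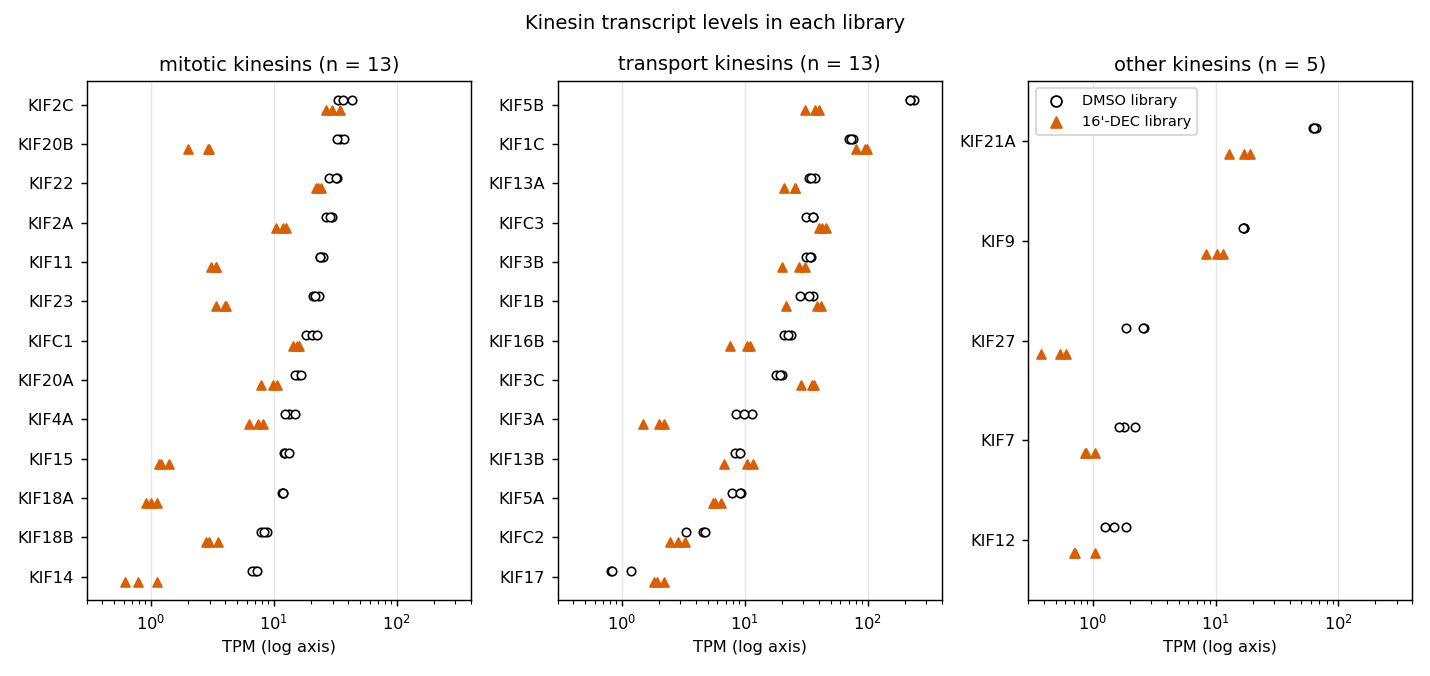
TPM of the 31 tested kinesins in each library on a log axis, ordered by the DMSO mean within each role; circles are the 3 DMSO libraries and triangles the 3 16'-DEC libraries. KIF20B, KIF11, KIF23, KIF15, KIF18A and KIF14 lie far to the left with 16'-DEC, while KIF2C overlaps, and KIF1C, KIFC3, KIF3C and KIF17 lie to the right.

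The summed level of all 42 kinesins fell from 865 ± 20.0 to 463 ± 56.6 TPM (mean ± SD, 3 libraries per group, as for all levels given). Mitotic kinesins summed to 260, 264 and 276 TPM in DMSO and to 122, 115 and 102 TPM with 16'-DEC. Transport kinesins summed to 530, 492 and 509 TPM in DMSO and to 353, 340 and 270 TPM with 16'-DEC. The groups did not overlap in either sum. KIF5B accounted for this difference among transport kinesins: without it they summed to 283 ± 12.2 TPM in DMSO and 285 ± 39.6 TPM with 16'-DEC. Mitotic kinesins thus made up 30.9% ± 1.17 of kinesin transcripts in DMSO and 24.4% ± 0.906 with 16'-DEC. The share of transport kinesins went from 59.0% ± 1.06 to 69.2% ± 1.32 and that of other kinesins from 10.1% ± 0.175 to 6.36% ± 0.428.

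**Figure D2:**
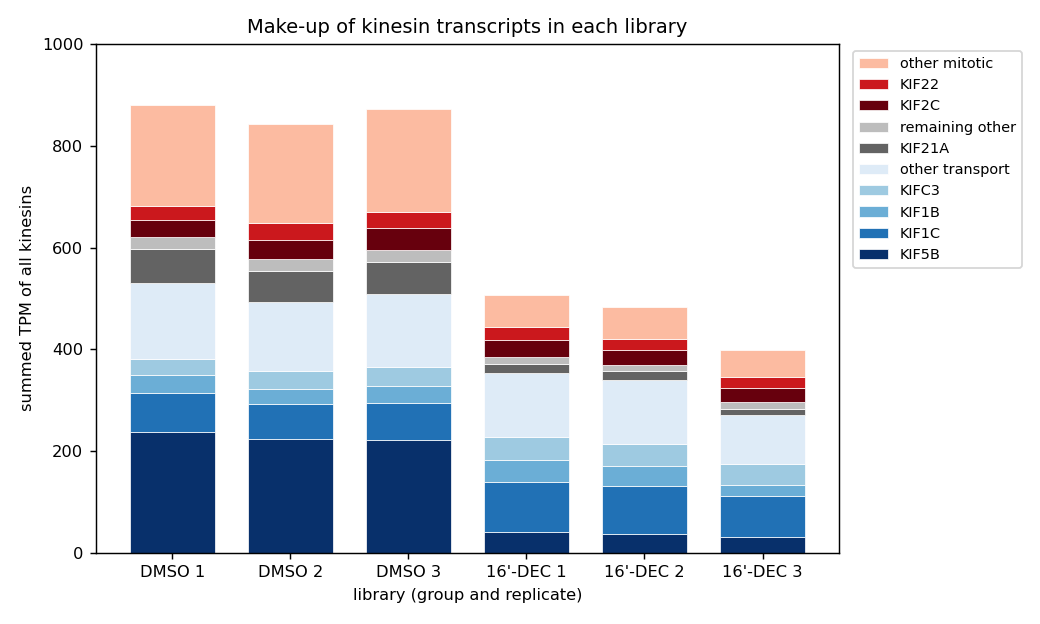
Summed TPM of the 42 kinesins in each library, stacked by gene or by role; blue shades are transport, grey shades other and red shades mitotic kinesins. KIF5B, at the base of each bar, goes from 221 to 238 TPM in DMSO to 30.7 to 40.2 TPM with 16'-DEC, while the KIF1C block above it grows.

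Among the motors that build the bipolar spindle, KIF11 (Eg5), which pushes the spindle poles apart, was at 25.3, 23.5 and 23.7 TPM in DMSO and at 3.40, 3.39 and 3.08 TPM with 16'-DEC. KIF15, which can take over from KIF11, was at 12.1, 12.2 and 13.3 TPM in DMSO and at 1.41, 1.21 and 1.15 TPM with 16'-DEC. All treated libraries of both genes were far below all DMSO libraries. The changes were -2.55 ± 0.0873 for KIF11 and -2.59 ± 0.102 for KIF15 (± SE, adjusted p = 1.17e-07 and 1.72e-07, limma). KIF11 lies on chromosome 10 at 92593286 to 92655395 and KIF15 on chromosome 3 at 44761717 to 44873376 (GRCh38, GENCODE 29, as for all gene positions). KIFC1 (HSET), a minus-end motor that focuses spindle poles, moved much less, from 20.2 ± 2.08 to 15.2 ± 0.841 TPM. Its change of -0.39 (adjusted p = 0.00623, limma) did not pass with median-of-ratios scaling (-0.05) and lay at 0.06 under quantile normalization.

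Motors that act on chromosomes and kinetochores differed widely in size of change. KIF18A, which damps the oscillation of chromosomes at the metaphase plate, was at 11.7, 11.9 and 11.8 TPM in DMSO and at 0.996, 0.907 and 1.12 TPM with 16'-DEC. It kept 8.54% of its DMSO level (-2.67 ± 0.0997, adjusted p = 1.44e-07, limma; chromosome 11, 28020620 to 28108308). Its relative KIF18B, which shortens astral microtubules, went from 8.28 ± 0.469 to 3.07 ± 0.356 TPM (-1.19). The chromokinesin KIF4A, which also sets the length of the spindle midzone with PRC1, fell by 0.81 and was at 12.2 to 14.9 TPM in DMSO and 6.25 to 8.12 TPM with 16'-DEC. KIF4B, a single-exon gene closely similar to KIF4A, was at no more than 0.028 TPM, so reads shared between these copies are uncertain but few were assigned to KIF4B. The chromokinesin KIF22 (Kid), which pushes chromosome arms outward, fell by 0.41 (adjusted p = 0.00269, limma) but did not pass with median-of-ratios scaling (-0.07) or quantile normalization (-0.04).

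The depolymerases of the kinesin-13 family remove tubulin from microtubule ends. KIF2A, which acts at spindle poles and also in neurites, was at 29.7, 26.4 and 28.7 TPM in DMSO and at 11.9, 12.6 and 10.4 TPM with 16'-DEC (-1.22 ± 0.0968, adjusted p = 5.49e-06, limma). KIF2C (MCAK), which corrects faulty attachments at centromeres, was at 33.4, 36.8 and 43.0 TPM in DMSO and at 34.3, 29.9 and 26.6 TPM with 16'-DEC. KIF2C was the sole tested mitotic kinesin whose groups overlapped. Its call as lower (-0.31 ± 0.121, adjusted p = 0.0451, limma) was lost when DMSO replicate 2 (adjusted p = 0.0808) or 3 (0.16) or treated replicate 2 (0.101) or 3 (0.128) was left out, and its value was at 0.03 under both other scalings. KIF2C was already 1.34 ± 0.196 times as abundant as KIF2A in DMSO and was 2.61 ± 0.264 times as abundant with 16'-DEC. KIF2B was at 0 in every library.

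Motors of the central spindle and of cytokinesis included the largest decrease of the family. KIF20B (MPP1), which acts late in cytokinesis, was at 34.4, 37.0 and 32.8 TPM in DMSO and at 2.95, 2.90 and 1.99 TPM with 16'-DEC. In DMSO it was among the most abundant mitotic kinesins, and with 16'-DEC it kept 7.53% of that level (-3.31 ± 0.124, adjusted p = 1.44e-07, limma; chromosome 10, 89701610 to 89774939). KIF20A (MKLP2), its paralog, which brings the chromosomal passenger complex to the midzone, was at 15.7, 14.8 and 16.7 TPM in DMSO and at 10.6, 9.74 and 7.90 TPM with 16'-DEC (-0.69 ± 0.114, adjusted p = 5.49e-04, limma). The order of the paralogs was therefore reversed: KIF20A was at 0.455 ± 0.055 times the level of KIF20B in DMSO and at 3.64 ± 0.311 times with 16'-DEC. KIF23 (MKLP1), the motor of the centralspindlin complex, was at 23.4, 20.7 and 21.7 TPM in DMSO and at 4.06, 3.97 and 3.37 TPM with 16'-DEC (-2.26 ± 0.0987, adjusted p = 2.30e-07, limma; chromosome 15, 69414246 to 69448427). KIF14, which works with citron kinase at the midbody, was at 6.69 to 7.27 TPM in DMSO and at 0.62 to 1.13 TPM with 16'-DEC (-2.13), with a treated mean under the filter (0.843 TPM).

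**Figure D3:**
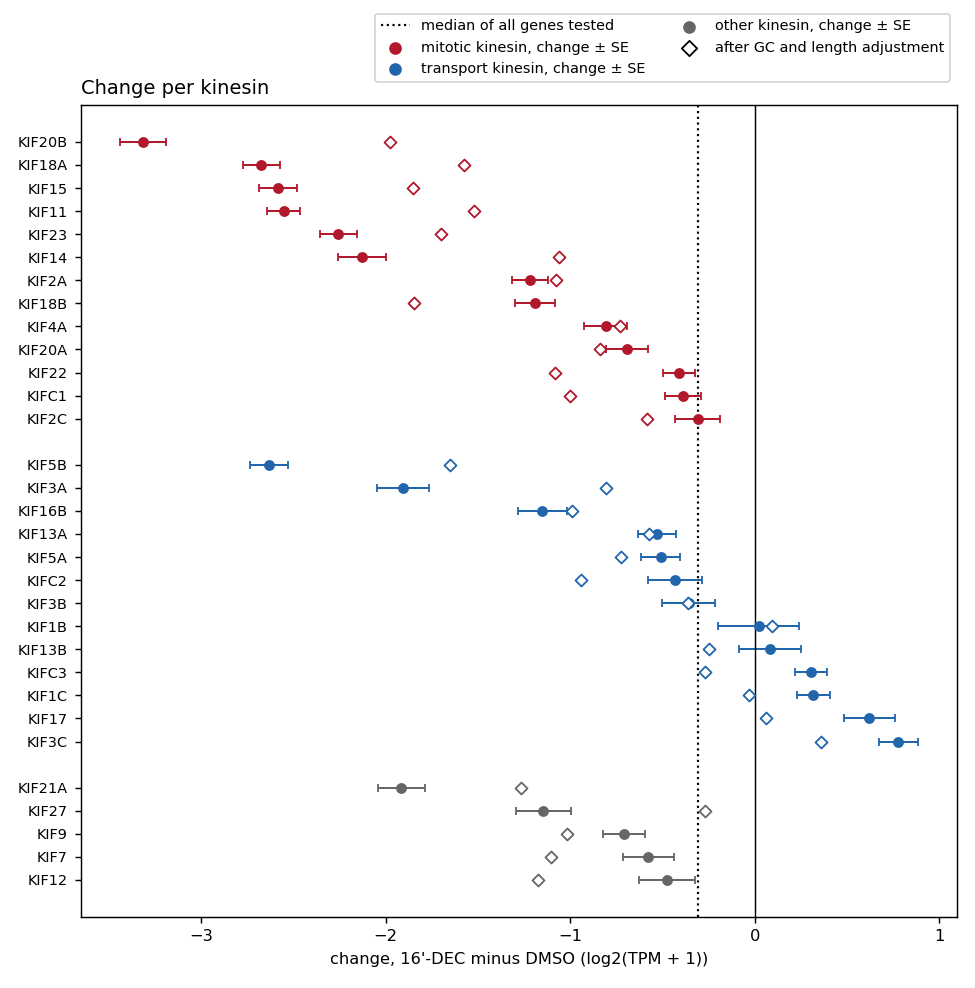
Change of each tested kinesin, 16'-DEC minus DMSO on the log2(TPM + 1) scale; filled circles with bars are the fitted change ± SE, open diamonds the value adjusted for GC content and transcript length with the library means kept, and the dotted line is the median of all genes tested (-0.31). All 13 mitotic kinesins lie below 0 with and without the adjustment, whereas transport kinesins lie on both sides, and KIFC3, KIF1C and KIF13B cross 0 with it.

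The promoters of the mitotic kinesins that fell most are shown. As background, many late cell cycle genes carry the cell cycle homology region, with the core letters TTTGAA, near their start. RefSeq windows of 300 bases (250 before to 50 after the start, so that the start is base 251; GRCh38.p14) matched 34 of the 42 kinesins by symbol. TTTGAA on either strand was found for 10 of 15 mitotic kinesins, 1 of 11 transport kinesins (KIF5B) and 0 of 8 other kinesins, and in 15.2% of all 35116 windows. Its first base lay between base 196 and base 281 in the mitotic kinesins and at base 111 in KIF5B. CCAAT, the core letters bound by NF-Y, was found on either strand for 11 of 15 mitotic, 4 of 11 transport and 3 of 8 other kinesins and in 34.6% of all windows. Both were found for 9 of 15 mitotic kinesins and in 5.90% of all windows, and no TTTGAA match overlapped a CCAAT match in a kinesin. The 6 mitotic kinesins that fell most (KIF20B, KIF18A, KIF15, KIF11, KIF23 and KIF14) all held TTTGAA, as did KIF18B, KIF4A, KIF4B and KIFC1, and it was not found in the windows of KIF2A, KIF2B, KIF2C, KIF20A and KIF22. A kinesin was counted if any of its windows matched, whereas the shares over all windows are per window. The RefSeq starts can differ from the GENCODE gene positions: the KIF11 window ends at 92593179, before its GENCODE start at 92593286. The KIF20A window begins at 138178862, after its GENCODE start at 138178719, so the bases before that start were not searched. A match or its absence therefore depends on the start used. A match is a description of the letters, not evidence of a bound factor, and its relation to the changes was not tested. The 5 windows of the largest decreases follow, 5′ to 3′ on the strand of the gene, with TTTGAA or its reverse complement TTCAAA in capitals. The windows are KIF20B chr10:89701340-89701639, plus strand; KIF18A chr11:28108107-28108406, minus strand; KIF15 chr3:44761544-44761843, plus strand; KIF11 chr10:92592880-92593179, plus strand; and KIF23 chr15:69414099-69414398, plus strand.
KIF20B: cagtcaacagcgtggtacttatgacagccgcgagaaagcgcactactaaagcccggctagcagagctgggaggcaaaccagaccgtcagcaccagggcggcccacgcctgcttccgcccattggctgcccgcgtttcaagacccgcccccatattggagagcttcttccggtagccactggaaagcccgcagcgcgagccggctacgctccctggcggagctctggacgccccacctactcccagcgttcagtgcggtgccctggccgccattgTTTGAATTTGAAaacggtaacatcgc
KIF18A: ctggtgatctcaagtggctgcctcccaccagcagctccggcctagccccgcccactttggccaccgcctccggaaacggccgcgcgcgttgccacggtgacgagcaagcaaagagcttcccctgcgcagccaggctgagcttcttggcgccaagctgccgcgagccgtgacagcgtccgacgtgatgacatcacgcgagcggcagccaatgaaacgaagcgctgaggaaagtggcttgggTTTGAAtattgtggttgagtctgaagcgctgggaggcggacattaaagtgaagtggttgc
KIF15: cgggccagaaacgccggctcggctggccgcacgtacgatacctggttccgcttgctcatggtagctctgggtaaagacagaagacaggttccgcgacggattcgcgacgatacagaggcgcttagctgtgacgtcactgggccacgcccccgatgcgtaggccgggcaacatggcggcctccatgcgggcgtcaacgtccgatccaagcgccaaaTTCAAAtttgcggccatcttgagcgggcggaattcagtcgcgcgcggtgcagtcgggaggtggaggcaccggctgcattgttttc
KIF11: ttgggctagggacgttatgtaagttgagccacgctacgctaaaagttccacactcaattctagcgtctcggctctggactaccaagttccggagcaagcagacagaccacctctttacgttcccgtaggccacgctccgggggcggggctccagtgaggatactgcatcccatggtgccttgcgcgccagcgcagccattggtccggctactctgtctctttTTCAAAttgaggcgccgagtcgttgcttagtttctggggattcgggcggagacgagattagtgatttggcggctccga
KIF23: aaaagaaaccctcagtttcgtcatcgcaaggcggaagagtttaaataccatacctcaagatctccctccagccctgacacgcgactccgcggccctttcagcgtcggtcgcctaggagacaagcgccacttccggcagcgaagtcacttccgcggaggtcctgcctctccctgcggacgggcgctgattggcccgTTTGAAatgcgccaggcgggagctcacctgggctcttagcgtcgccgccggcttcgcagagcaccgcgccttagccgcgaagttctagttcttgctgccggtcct
KIF20B, with the largest decrease, holds the letters as a direct repeat after the start, at bases 275 and 281. KIF18A and KIF23 hold them once on the shown strand, at bases 241 and 196. KIF15 and KIF11 hold the reverse complement, at bases 216 and 223.

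Among transport kinesins, KIF5B, the kinesin-1 heavy chain found in most cell types, which carries mitochondria, lysosomes and vesicles, changed most. It was at 238, 223 and 221 TPM in DMSO and at 40.2, 37.1 and 30.7 TPM with 16'-DEC, with no overlap (-2.63 ± 0.102, adjusted p = 1.60e-07, limma; chromosome 10, 32009010 to 32056431). It was the most abundant kinesin in all 3 DMSO libraries, with 26.3% ± 0.839 of kinesin transcripts, and held 7.77% ± 0.141 with 16'-DEC. KIF1C, a kinesin-3 of vesicle transport, was at 75.7, 70.2 and 73.9 TPM in DMSO and at 99.5, 94.9 and 81.1 TPM with 16'-DEC and was the most abundant kinesin in all 3 treated libraries. Its share went from 8.47% ± 0.129 to 19.9% ± 0.400, and the ratio of KIF5B to KIF1C within a library went from 3.10 ± 0.0961 to 0.391 ± 0.0127. The rise of KIF1C (0.32 ± 0.09, adjusted p = 0.0111, limma) turned to -0.03 after adjustment for GC content and length with library means kept. With libraries re-centred in that adjustment KIF1C was at 0.36 and passed as higher (adjusted p = 4.97e-04, limma). The other heavy chains of kinesin-1 are known mainly from neurons: KIF5A went from 8.78 ± 0.823 to 5.86 ± 0.445 TPM (-0.51), which did not pass with median-of-ratios scaling (-0.20) or quantile normalization (-0.01), and KIF5C was under 0.1 TPM.

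The kinesin-2 subunits moved in opposite directions. KIF3A and KIF3B form the motor of ciliary and vesicle transport together with KIFAP3, and KIF3C can replace KIF3B as the partner of KIF3A. KIF3A was at 11.4, 8.42 and 9.83 TPM in DMSO and at 2.19, 2.02 and 1.48 TPM with 16'-DEC (-1.91 ± 0.142, adjusted p = 3.61e-06, limma). KIF3B was at 34.4, 31.3 and 34.0 TPM in DMSO and at 27.7, 30.7 and 19.9 TPM with 16'-DEC. All treated values of KIF3B lay under the DMSO values, but it did not pass (-0.36, adjusted p = 0.0503, limma). It passed as lower with a pseudocount of 5 (adjusted p = 0.0483), with a filter of 5 TPM (0.0318) and without 16'-DEC replicate 2 (0.018), and it was at -0.02 under median-of-ratios scaling and 0.00456 under quantile normalization. KIF3C was at 20.0, 18.0 and 19.3 TPM in DMSO and at 36.9, 35.1 and 28.8 TPM with 16'-DEC, all above DMSO. On the log2(TPM + 1) scale it had the largest increase of the family (0.78 ± 0.105, adjusted p = 1.60e-04, limma; chromosome 2, 25926596 to 25982749). The ratio of KIF3C to KIF3A within a library went from 1.95 ± 0.188 to 17.9 ± 1.35, and that of KIF3B to KIF3A from 3.40 ± 0.352 to 13.8 ± 1.29. Transcript GC contents were 37.8% for KIF3A, 47.6% for KIF3B and 56.0% for KIF3C, the order of their changes. After adjustment for GC content and length with library means kept KIF3A was at -0.81, KIF3B at -0.36 (adjusted p = 0.0128, limma) and KIF3C at 0.36, and all passed. With libraries re-centred KIF3A was at -0.42 and KIF3C at 0.75, and both passed. KIF3B was then at 0.03 and did not pass (adjusted p = 0.777, limma).

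The endosomal motors KIF16B and KIF13A fell. KIF16B, which moves early endosomes, went from 22.5 ± 1.49 to 9.67 ± 1.83 TPM (-1.15 ± 0.133, adjusted p = 5.71e-05, limma). KIF13A, a motor of recycling endosomes, went from 35.0 ± 1.92 to 24.0 ± 2.82 TPM (-0.53), which did not pass with median-of-ratios scaling (-0.19) or quantile normalization (-0.17). Its paralog KIF13B and the mitochondrial and vesicle motor KIF1B did not pass, and both depended on 1 library and on the processing. KIF1B was at 42.1, 39.0 and 21.7 TPM with 16'-DEC, against 28.4 to 35.7 TPM in DMSO. KIF13B passed as higher with median-of-ratios scaling (0.40, adjusted p = 0.0291, limma) and quantile normalization (0.57, adjusted p = 0.00413, limma). KIF1B did not pass with these scalings (0.36 and 0.37). After GC and length adjustment with libraries re-centred KIF1B passed as higher (0.48, adjusted p = 0.0213, limma), and KIF13B did not pass (0.14). Without 16'-DEC replicate 3, KIF1B was at 0.31 (adjusted p = 0.0314, limma) and KIF13B at 0.29 (adjusted p = 0.0193). With it, and without replicate 1, KIF1B lay at -0.15 and KIF13B at -0.05.

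Minus-end directed transport motors and KIF17 completed the group. KIFC3, known from apical transport and cell junctions, was at 31.6, 36.3 and 35.8 TPM in DMSO and at 46.0, 42.6 and 40.3 TPM with 16'-DEC. Its rise (0.31 ± 0.0877, adjusted p = 0.0117, limma) turned to a called decrease of -0.27 (adjusted p = 0.00709) after adjustment for GC content and length with library means kept. With libraries re-centred KIFC3 was at 0.12 and passed as higher (adjusted p = 0.0448, limma). It did not pass without 16'-DEC replicate 1 (adjusted p = 0.0525). KIFC2 went from 4.23 ± 0.801 to 2.86 ± 0.418 TPM (-0.43, adjusted p = 0.026, limma), which was lost when DMSO replicate 2 or 3 or treated replicate 1 or 2 was left out (adjusted p from 0.0577 to 0.0942) and was at 0.11 with quantile normalization. KIF17, a motor of dendrites and cilia, was at 0.811, 1.19 and 0.833 TPM in DMSO and at 2.20, 1.83 and 1.92 TPM with 16'-DEC (0.62 ± 0.138, adjusted p = 0.0031, limma). After adjustment for GC content and length it was at 0.06 with library means kept. With libraries re-centred it was at 0.45 and passed as higher (adjusted p = 0.00883, limma). KIF17 passed the filter only through its treated libraries. Its treated mean was 210% of the DMSO mean, against 176% for KIF3C, and with a pseudocount of 0.1 it was at 1.012 and KIF3C at 0.806. KIF1A, a neuronal vesicle motor, was under 0.11 TPM in every library.

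Of the other kinesins, KIF21A, which restrains microtubule growth at the cell cortex, was the most abundant, at 66.2, 61.8 and 63.0 TPM in DMSO and 19.0, 17.1 and 12.9 TPM with 16'-DEC (-1.92 ± 0.128, adjusted p = 1.91e-06, limma). KIF9, of motile cilia, went from 16.9 ± 0.147 to 10.0 ± 1.59 TPM (-0.71) and did not pass with quantile normalization (-0.24). KIF7, a regulator of Hedgehog signalling in cilia, KIF27, its relative, and KIF12 were at 1.88 ± 0.300, 2.34 ± 0.400 and 1.54 ± 0.317 TPM in DMSO and passed the filter through these libraries. With 16'-DEC they were at 0.93 ± 0.101, 0.508 ± 0.115 and 0.824 ± 0.186 TPM. KIF27 (-1.15) did not pass after adjustment for GC content and length (-0.27). KIF12 (-0.47) was at 0.00305 with quantile normalization and was not called when DMSO replicate 2 (adjusted p = 0.0603) or treated replicate 1 (0.067) or 3 (0.0608) was left out. KIF7 (-0.58) did not pass with quantile normalization (-0.09). KIF24, a centriolar kinesin just under the filter, was at 1.11, 1.03 and 0.889 TPM in DMSO and at 0.456, 0.574 and 0.326 TPM with 16'-DEC. The remaining 10 kinesins under the filter (KIF1A, KIF2B, KIF4B, KIF5C, KIF6, KIF19, KIF21B, KIF25, KIF26A and KIF26B) were at no more than 0.155 TPM in any library, and 3 of them, KIF2B, KIF19 and KIF26A, at 0 throughout.

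The changes followed the GC content of the transcripts, as they did for genes in general. Across the 31 tested kinesins Spearman's rho between GC content and change was 0.771 (0.857 over the 13 mitotic and 0.731 over the 13 transport kinesins), and 0.68 across 13291 tested genes with a GC value. These are descriptions across genes, which share the same 6 libraries and are not independent replicates. Median GC content was 44.7% in mitotic and 51.4% in transport kinesins. KIF20B (34.2%), KIF18A (37.0%), KIF3A (37.8%), KIF14 (38.3%), KIF11 (38.3%), KIF5B (39.1%) and KIF27 (39.9%) had transcripts under 40% GC. In this class the median change of all 1968 tested genes was -1.46, and KIF27 (-1.15) lay above it. Within their GC class all 13 mitotic kinesins lay below the class median, against 7 of 13 transport and 4 of 5 other kinesins. KIF18B, with 62.4% GC, lay at -1.19 in a class with a median of 0.27. The part of GC content in the changes was not tested.

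**Figure D4:**
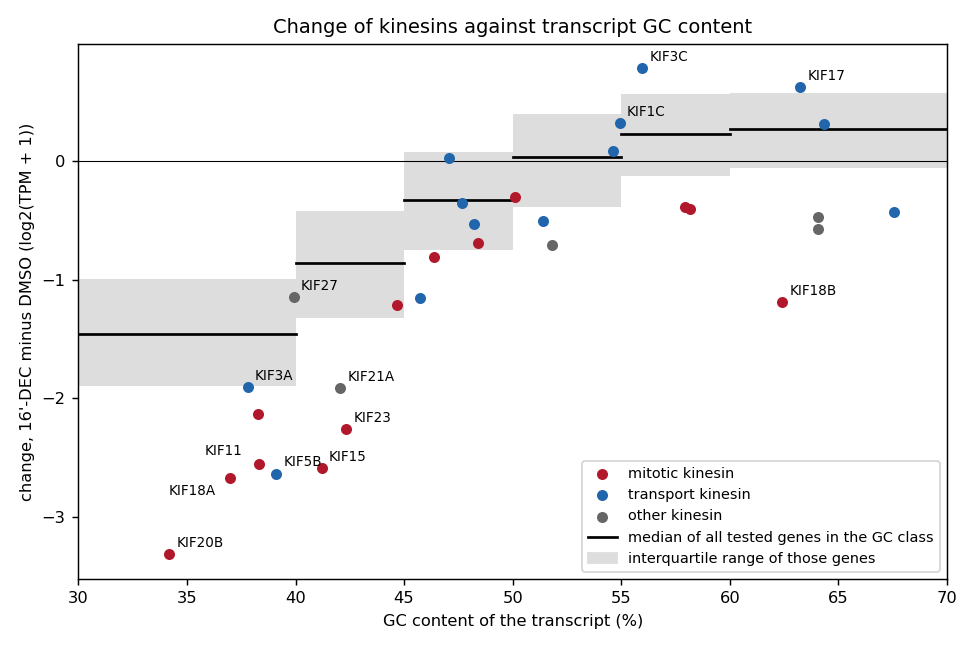
Change of each tested kinesin (log2(TPM + 1), 16'-DEC minus DMSO) against the GC content of its transcript; black lines and grey bands are the median and the interquartile range of all tested genes in each GC class, the outer classes being open-ended. Mitotic kinesins lie below the class median at every GC content, down to KIF20B at -3.31 and with KIF18B at -1.19 among GC-rich transcripts.

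Once GC content and transcript length were adjusted for, with the library means kept, the mitotic kinesins were all still lower (13 of 13, median -1.08), where 57.8% of genes were lower and 13.5% higher. Transport kinesins were then lower in 8 of 13 and higher in 1, KIF3C, with a median of -0.36, and the other kinesins lower in 4 of 5. KIF20B was at -1.98, KIF15 at -1.85, KIF18B at -1.85, KIF23 at -1.70, KIF5B at -1.65, KIF18A at -1.58 and KIF11 at -1.52. The change of KIF22 grew to -1.08, and KIFC1 moved in the same direction. With libraries re-centred in the same adjustment, mitotic kinesins were lower in 12 of 13 (all but KIF2C), and transport kinesins were lower in 6 and higher in 5, where 31.7% of genes were lower and 34.5% higher. The difference between the mitotic and the transport median was -0.72 in both forms of the adjustment.

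Genes that work with mitotic kinesins were lower as well. Of 20 listed partners, all tested, 18 fell, 0 rose and 2 did not pass (median -1.19), where 48.9% of all genes tested were lower and 22.7% higher. Changes were -3.21 for HMMR, a spindle protein, -3.10 for CENPE, a kinetochore kinesin outside the KIF symbols, -2.64 for ECT2, the exchange factor recruited by centralspindlin, and -2.38 for MAD2L1, a checkpoint protein (adjusted p from 1.17e-07 to 1.44e-07, limma). CENPE was at 14.1 ± 0.716 TPM in DMSO and 0.757 ± 0.180 TPM with 16'-DEC. It reached the filter only through DMSO, so that it had to be lower. PLK1, a mitotic kinase, and BIRC5 (survivin), a member of the chromosomal passenger complex, were the members that did not pass. PLK1 was at 73.2 ± 5.19 and 74.3 ± 9.37 TPM, and BIRC5 at 31.7 ± 1.85 and 31.8 ± 1.33 TPM. Their calls depended on scaling: both passed as higher with median-of-ratios scaling (0.36 and 0.35) and quantile normalization (0.25 and 0.36). Both passed as lower after GC and length adjustment with library means kept (-0.63 and -0.37). Partners were lower in 13 and higher in 2 with median-of-ratios scaling (37.7% and 37.1% of all genes) and lower in 19 and higher in 0 after GC and length adjustment with library means kept (57.8% and 13.5%). With libraries re-centred 17 were lower and 0 higher (31.7% and 34.5%). RACGAP1, the partner of KIF23 in centralspindlin, went from 24.1 ± 2.10 to 16.9 ± 2.54 TPM (-0.50), a smaller change than the -2.26 of KIF23. It did not pass with median-of-ratios scaling (-0.16) or quantile normalization (-0.06). Nor did it pass after GC and length adjustment with library means kept (-0.18) or libraries re-centred (0.21).

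Light chains and cargo adaptors of transport kinesins went both ways: of 18 listed and 17 tested, 7 fell, 6 rose and 4 did not pass (median 0.05), beside 48.9% lower and 22.7% higher among all genes tested. RHOT1 (Miro1), which links KIF5B to mitochondria through TRAK proteins, fell by 1.65, the scaffold MAPK8IP3 by 0.85, TRAK2 by 0.74 and KIFBP, a kinesin-binding protein, by 0.45 (adjusted p from 8.28e-07 to 0.00137, limma). TRAK2 did not pass after GC and length adjustment with library means kept (-0.08) and passed as higher with libraries re-centred (0.30). KIFBP did not pass with median-of-ratios scaling (-0.10) or quantile normalization (-0.16) and passed as higher with libraries re-centred (0.17). RHOT1 and MAPK8IP3 passed as lower in each of these settings. The scaffold MAPK8IP2 rose by 1.04 (adjusted p = 5.67e-05, limma). The kinesin light chains KLC2 and KLC4 rose by 0.44 and 0.41, and KLC1, the most abundant, was at 50.9 ± 1.15 and 55.2 ± 6.87 TPM without passing. After GC and length adjustment with library means kept KLC4 passed as lower (-0.23) and KLC2 did not pass (-0.18). With libraries re-centred KLC2 and KLC4 both passed as higher (0.20 and 0.16). KIFAP3, the third subunit of kinesin-2, went from 13.4 ± 0.249 to 10.4 ± 1.22 TPM (-0.35, adjusted p = 0.0109, limma). It passed as higher after GC and length adjustment, at 0.33 with library means kept and 0.72 with libraries re-centred. With median-of-ratios scaling 3 members of this list were lower and 9 higher, against 37.7% and 37.1% of all genes. After GC and length adjustment with library means kept 7 were lower and 4 higher (57.8% and 13.5% of genes). With libraries re-centred 4 were lower and 12 higher (31.7% and 34.5%).

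Some kinesin exons overlap expressed genes on the other strand, and the use of strand in counting is not given in the sources used here. KIF18A overlaps METTL15 (16.8 to 17.7 TPM in DMSO and 3.75 to 4.59 TPM with 16'-DEC), and KIF20A overlaps BRD8 (35.9 to 37.4 and 16.2 to 23.6 TPM) and CDC23 (27.9 to 29.9 and 14.8 to 18.8 TPM). KIF4A overlaps PDZD11 (23.3 to 29.5 and 40.6 to 42.4 TPM), KIF9 overlaps KLHL18, KIF7 overlaps TICRR and KIF24 overlaps UBAP1. Reads from such pairs cannot be told apart without strand. KIF2A overlaps IPO11 (20.3 to 22.1 and 7.66 to 9.11 TPM) on the same strand, where strand does not separate their shared exons.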

How the data were processed

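The authors deposited 1 table of TPM values for the 6 libraries, each with the same sum over 78304 genes. Per the submitters' processing notes, the tools were HISAT2 2.0.1, HTSeq 0.6.1, cutadapt 1.9.1 and DESeq2, and the build was GRCh38, with no role given. The annotation, like gene lengths, depth and strand use, is not given in the sources used here. The deposited TPM keep no depth, so no counting interval is given. Samples were grouped by title. The 14275 genes that averaged 1 TPM or more were fitted as log2(TPM + 1) by limma 3.58.1 (R 4.3.3, eBayes with mean trend, 2-sided), with Benjamini-Hochberg adjustment over all of them and a threshold of 0.05. This scale understates changes of low genes. The fit was tested on simulated data.

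GC content and length came from 1 GENCODE 29 transcript per gene (APPRIS principal, then basic, then longest), matched by identifier for 93.1% of tested genes and every kinesin. The adjustment fitted each library's deviations from the gene means with natural splines of GC content and log2 length (5 degrees of freedom) and subtracted the fit. Every tested kinesin is named. From each partner list the 4 lowest adjusted p-values in the main direction and the 2 lowest in the other are named, except 1 gene that is not reported here; PLK1, BIRC5, RACGAP1, KLC1, KLC2, KLC4 and KIFAP3 were chosen after their values were seen. Members, roles, lists and motifs were chosen with earlier results of these data known. Figures used matplotlib 3.10.9 in Python 3.11.15.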

Additional observations from a re-analysis of the deposited data

How the results depend on the processing

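Over the alternatives, 492 of 552 values of single kinesins kept direction and side of the threshold, and 15 of the 31 tested kinesins did so under every alternative run: KIF2A, KIF3A, KIF3C, KIF4A, KIF5B, KIF11, KIF14, KIF15, KIF16B, KIF18A, KIF18B, KIF20A, KIF20B, KIF21A and KIF23. For the rest the cause was not tested. Of the other values, 36 kept direction but no longer passed, and 9 kept direction and newly passed. A further 15 changed sign, and some of these no longer passed either. The mitotic, transport and other medians (-1.22, -0.36 and -0.71) moved with the processing. With a pseudocount of 0.1 the mitotic and other medians were -1.40 and -0.94, and with a pseudocount of 5 they were -1.002 and -0.41. With no filter on low values the transport and other medians were -0.0328 and -0.47. With a mean of at least 5 TPM only 2 other kinesins were tested, both lower (median -1.31).

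With median-of-ratios scaling the mitotic, transport and other medians were -0.90, -0.0179 and -0.38, with 3 transport kinesins lower and 5290 of all genes higher. With quantile normalization they were -0.78, 0.11 and -0.24, with 15 kinesins lower, among them 3 transport and 2 other ones, and 5990 of all genes higher. After GC and length adjustment with library means kept the mitotic and other medians were -1.08 and -1.11, 1 kinesin was higher (a transport one), and 1797 of all genes were higher. With libraries re-centred the mitotic and transport medians were -0.70 and 0.03, and 4213 of all genes were lower. At a threshold of 0.01, 2 kinesins were higher, both transport ones, and with KIF2A counted as a transport kinesin the mitotic median was -1.66. The difference between the mitotic and transport medians (-0.86), whose alternatives were chosen after seeing the data, was -1.03 with a pseudocount of 0.1 and -1.17 with no filter, and ran from -0.96 to -0.85 without each library in turn.

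Signs changed for KIF12 (0.00305), KIF2C (0.0251), KIF3B (0.00456), KIFC1 (0.0638) and KIFC2 (0.11) with quantile normalization, and for KIF2C with median-of-ratios scaling (0.0326). They changed for KIF13B (-0.25), KIF1C (-0.0306) and KIFC3 (-0.27) after GC and length adjustment with library means kept, and for KIF27 (0.12) and KIF3B (0.0272) with libraries re-centred. Without 1 library KIF13B ran from -0.0544 to 0.29 and KIF1B from -0.15 to 0.31, with KIF1B at -0.0696 without DMSO replicate 2 and at -0.0954 without 16'-DEC replicate 2.

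The replicate numbers were not taken as pairs, since deviations of same-numbered libraries from their group means correlated at 0.0941, -0.18 and -0.0726. A fit with the replicate number as a block called 23 kinesins lower and 4 higher, against 24 and 4, and KIF2C was the kinesin that no longer passed in it (adjusted p = 0.0801, limma). TPM carry no depth, so how far depth limits the kinesins under 1 TPM is unknown.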

Other observations

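Cytoplasmic dynein and its cofactor dynactin, which carry cargo towards the minus end of microtubules and so oppose most kinesins, went both ways. Of 25 listed genes 23 were tested: 10 fell, 10 rose and 3 did not pass (median -0.00964), beside 48.9% lower and 22.7% higher among all genes tested. DYNLT3, a dynein light chain, fell by 2.31, DCTN6, a dynactin subunit, by 1.36, DYNC1LI2, a light intermediate chain, by 1.22 and DYNC1LI1 by 0.61, while ACTR1A, which forms the dynactin filament, rose by 0.89 and DYNLRB1 by 0.84 (adjusted p from 1.28e-07 to 1.18e-04, limma). The heavy chain DYNC1H1 was at 82.3 ± 8.51 TPM in DMSO and at 103 ± 4.58 TPM with 16'-DEC (0.32), and KIF5B, above it in DMSO at 227 ± 9.13 TPM, was below it at 36.0 ± 4.85 TPM. DYNC1LI1 was at -0.03 after GC and length adjustment with library means kept and passed as higher with libraries re-centred (0.35). DCTN6 passed as lower with library means kept (-0.50) but not with libraries re-centred (-0.11, adjusted p = 0.163, limma). DYNC1H1 did not pass with library means kept (0.10, adjusted p = 0.481, limma) and passed as higher with libraries re-centred (0.49). DYNC1H1 was named after its values were seen. With median-of-ratios scaling 6 members of the list were lower and 12 higher, against 37.7% and 37.1% of all genes. After GC and length adjustment with library means kept 8 were lower and 9 higher (57.8% and 13.5% of genes). With libraries re-centred 5 were lower and 15 higher (31.7% and 34.5%).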
